A study of Mus musculus with 5 samples.

Results

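G2/M and mitosis genes encode the proteins that take a cell from the end of DNA replication through chromosome segregation to division. The group examined here holds 50 named genes: cyclins with CDK1 and its regulators, mitotic kinases, kinesins, spindle checkpoint and kinetochore genes, anaphase genes, spindle and cytokinesis genes, condensin subunits with topoisomerase, and the genes Foxm1 and Mki67. All 50 symbols were found among the 14454 gene symbols with expression values. They are a list of symbols with no threshold on their values; what was known when the list was drawn up is given with the processing. The study sequenced RNA of NIH/3T3 cells, mouse embryonic fibroblasts that grow without limit in culture, from 5 lines with human H2A tagged with EGFP integrated in the genome. The tagged histone was wild type in 1 line (wt) and had threonine 120 replaced by aspartate (T120D) in 4 lines numbered 3, 6, 15 and 18, so that the control also carries the fusion. The cells grew in DMEM with 10% fetal calf serum and gentamicin, and libraries were made with a kit that keeps the strand. The labels give no promoter for the transgene, do not say whether a line is a clone, and name no untransfected line.

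CDK1 bound to a B-type cyclin drives entry into mitosis, PLK1 and the Aurora kinases build the spindle, and the spindle checkpoint holds back the anaphase-promoting complex until every kinetochore is attached. The complex, with CDC20 and the ubiquitin-conjugating enzyme UBE2C, then marks cyclin B and securin for destruction, and separase releases the chromatids. Many of these genes are transcribed late in the cell cycle, through promoters that hold CCAAT boxes and a cell cycle genes homology region (CHR) bound by the DREAM and MuvB complexes, with FOXM1 as an activator. By its title, the study concerns transformation and cyclin D1, a G1 regulator, downstream of phosphorylation at the mutated threonine, and the question here is how the mitotic genes stood in the T120D lines beside wt.

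Values are RPKM, in which read numbers are divided by the length of the transcript and by the size of the library. The depth estimated from the steps of low values was 2520000 to 2720000 reads per line, so that 1 RPKM of a transcript of 2000 bases is worth 5.0 to 5.4 reads. Of 12 fibroblast markers, 11 had at least 1 RPKM in every line; the exception was Lum, with at most 0.362 RPKM in T120D lines and 3.89 RPKM in wt. The summed level of the 12 markers was 3138 RPKM in wt and 2347 to 2725 RPKM in the T120D lines. Single markers differed in both directions. Fn1 was at 376 RPKM in wt and 120 to 154 RPKM in T120D, and Pdgfra at 43.5 and 11.5 to 15.1 RPKM. Thy1 was at 20.3 RPKM in wt and 48.5 to 61.5 RPKM in T120D, and Vim at 701 and 801 to 848 RPKM. Endothelial, epithelial and skeletal muscle markers found in the files reached at most 0.471, 0.476 and 0.683 RPKM in any line. Of the endothelial markers, 2 were at 0 in every line. Macrophage markers reached 5.32 RPKM through Cd14, with a sum of 3.17 RPKM in wt and 2.88 to 6.55 RPKM in T120D. Neural markers reached 3.83 RPKM through Map2, with sums of 4.11 RPKM in wt and 3.02 to 4.69 RPKM in T120D. The part of these differences in the results below was not tested. In bulk RNA, a larger share of cells in G2 and M and more RNA of a gene per cell cannot be told apart.

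Of the 50 genes, 10 were higher in the T120D lines, 0 were lower, and 40 were not called. The 10 were Cdk1, Ccnf, Kif20a, Mad2l1, Cenpa, Ube2c, Prc1, Anln, Ect2 and Foxm1, and the T120D mean was 1.38 to 2.03 times the wt value. A gene was called at a limma adjusted p under 0.05 over all 10052 tested genes, on log2(RPKM + 1), and all 50 members passed the filter of a mean of at least 1 RPKM. Among all tested genes, 13.1% were called, 7.65% higher and 5.45% lower in T120D. Of the members, 10 of 50 were called. In the fit limited to a mean of at least 5 RPKM, 747 of 6232 genes were higher and 436 lower. Of the 45 members in that fit, 10 were higher and 0 lower. At an unadjusted limma p under 0.05, 15 members were higher and 0 lower, where 15.2% of all tested genes were higher and 13.4% lower.

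The median log2 difference of the members was 0.23, with a range of -0.42 to 0.92, against -0.02 for all tested genes. In the fit limited to a mean of at least 5 RPKM, these medians were 0.25 and 0.04. The difference was above 0 in 42 members and below 0 in 8. Of the members, 31 had their lowest value in wt and 2, Cdc25b and Bub3, their highest; for 17 the wt value was within the T120D range. Over all tested genes, wt lay below all T120D lines for 31.1% and above all of them for 32.3%. Since wt is 1 line, limma sets its distance from the T120D mean against the spread of the T120D lines. With 1 and 4 lines, the smallest one-sided p that an exact permutation test allows is 0.2. Cdk1 and Kif20a kept their calls under all 11 processing alternatives; the other 8 called members lost theirs under at least 1. Without the filter on low values 4 of the 50 members were called higher, beside 434 of 13826 genes. By limma without an intensity trend, 3 of the 50 were, beside 455 of 10052 genes.

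**Figure D1:**
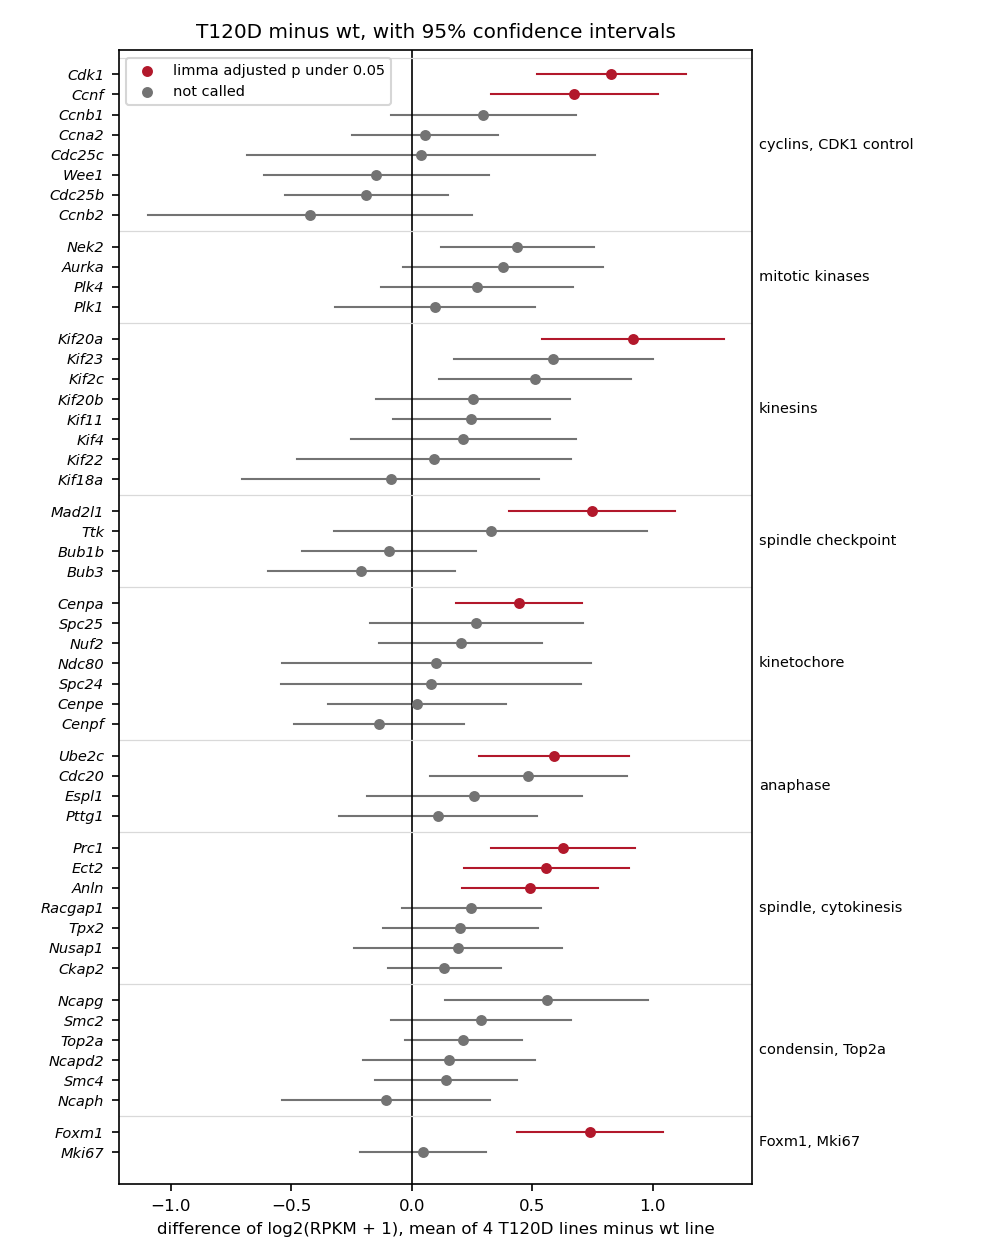
Difference of log2(RPKM + 1) between the T120D mean (4 lines) and wt (horizontal axis, positive where T120D is higher), for the 50 members by role; bars are 95% confidence intervals of limma, red points have an adjusted p under 0.05. All 10 called members lie to the right of 0, and the intervals of 35 members include 0.

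The promoters of the members were searched for sequence motifs. Since CCAAT boxes and the CHR are described above for such genes, their shares among the members are not independent of the list. RefSeq promoter sequences of build GRCm38.p6, from 250 bases before to 50 after each start, were available for 42 members, 45 promoters in all. The CHR was searched with the spelling TTTGAA, with a central change as TTTAAA, or in the form TTCGAA, and the CCAAT box as CCAAT, each on both strands. A CHR match was present in 84.4% of member promoters, in 20.7% of the 9695 promoters of tested genes and in 28.8% of all 32851 promoters. A CCAAT match was present in 75.6%, 38.5% and 37.4% of them. Both were present in 73.3% of member promoters and in 8.42% of the promoters of tested genes. Among 104 promoters of the other mitosis genes, 47.1% held a CHR match, 58.7% a CCAAT match and 32.7% both. The E2F core was spelled GCGGGA or, with another base, GCGCGA, on either strand. It was in 51.1% of member promoters, 46.9% of those of tested genes and 25.1% of all promoters. Of the promoters of the other mitosis genes, 63.5% held it.

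The sequences below are the 150 bases directly before the annotated start, 5′ to 3′ on the gene's strand, with CHR and CCAAT matches on either strand in capitals (a CCAAT box on the other strand reads ATTGG). They are shown for 4 members that were called higher and 3 that were not, whose windows hold both motifs. The windows of Ect2, called higher, and of Bub3 and Ckap2, not called, also hold both and are not shown. Of the 21 named members with a sequence, 10 have both motifs in this window and 10 have no CHR there, among them the called Prc1, Anln and Mad2l1. For members with several annotated starts, only the first listed start was used here. The window before the other Prc1 start holds both motifs. On the minus strand lie Cdk1 (chr10:69352913-69353062), Ccnf (chr17:24251410-24251559), Top2a (chr11:99024190-99024339) and Mki67 (chr7:135716380-135716529). On the plus strand lie Cenpa (chr5:30666736-30666885), Ube2c (chr2:164769779-164769928) and Plk1 (chr7:122159285-122159434). These are coordinates of GRCm38.p6, not of the build of the expression values.
Cdk1: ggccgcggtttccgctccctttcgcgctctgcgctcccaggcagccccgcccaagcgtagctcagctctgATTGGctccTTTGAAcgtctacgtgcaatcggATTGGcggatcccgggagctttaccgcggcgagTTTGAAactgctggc
Ccnf: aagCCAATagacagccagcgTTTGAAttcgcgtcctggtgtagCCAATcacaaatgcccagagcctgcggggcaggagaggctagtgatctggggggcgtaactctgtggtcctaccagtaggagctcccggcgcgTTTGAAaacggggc
Cenpa: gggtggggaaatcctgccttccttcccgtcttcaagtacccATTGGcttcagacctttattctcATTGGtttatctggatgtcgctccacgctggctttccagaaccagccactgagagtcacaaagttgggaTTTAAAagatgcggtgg
Ube2c: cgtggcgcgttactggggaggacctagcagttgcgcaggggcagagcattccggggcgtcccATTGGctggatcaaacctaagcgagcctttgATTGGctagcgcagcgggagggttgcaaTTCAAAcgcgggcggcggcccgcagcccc
Plk1: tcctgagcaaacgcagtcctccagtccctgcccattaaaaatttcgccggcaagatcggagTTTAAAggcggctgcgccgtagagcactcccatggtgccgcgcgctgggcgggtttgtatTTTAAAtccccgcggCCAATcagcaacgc
Top2a: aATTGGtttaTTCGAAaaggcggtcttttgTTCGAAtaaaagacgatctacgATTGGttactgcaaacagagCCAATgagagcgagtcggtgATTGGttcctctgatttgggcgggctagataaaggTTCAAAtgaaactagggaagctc
Mki67: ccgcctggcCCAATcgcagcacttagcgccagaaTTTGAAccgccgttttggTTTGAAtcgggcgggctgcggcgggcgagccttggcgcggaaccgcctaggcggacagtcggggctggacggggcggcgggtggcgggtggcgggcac

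The motifs were found in promoters of called and of not called members, and their shares were not tested against each other. Counted by gene, since Ect2 and Prc1 have 2 overlapping windows each, 7 of 8 called members held a CHR match and 6 a CCAAT match. Of 34 members not called, 28 and 25 did. From 60 bases before to 50 after the start, a range set after the matches were seen, 7 of the 8 and 23 of the 34 held a CHR match. Mad2l1 was the called member without a CHR or CCAAT match in its window, and no promoter sequence of Foxm1 or Kif20a was used. Matches were most frequent near the start. In member promoters there were 51.1 CHR matches per 100 promoters in the 50 bases after it and 33.3 in the 50 bases before it, against 2.59 and 3.41 in promoters of tested genes. CCAAT matches were most frequent in the 100 bases before the start, with 46.7 per 100 member promoters in each bin of 50 bases. Promoters of the 42 DNA replication genes, 34 of which had a sequence, held a CHR match in 32.5% and an E2F core in 77.5%. A match is a string of letters and not a measured binding site.

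**Figure D2:**
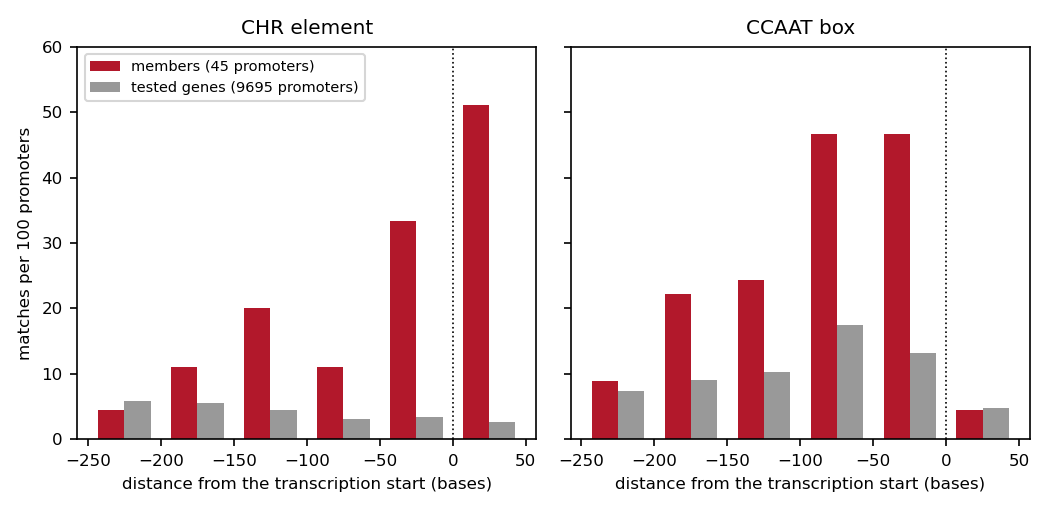
Matches per 100 promoters (vertical axis) in bins of 50 bases by distance from the transcription start (horizontal axis), for 45 member promoters (red) and 9695 promoters of tested genes (grey). CHR matches in member promoters are most frequent from 50 bases before to 50 after the start, and CCAAT matches in the 100 bases before it.

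Expression of the members spanned a limited range. The mean over the 5 lines ran from 2.84 RPKM for Ttk to 42.7 RPKM for Ckap2. A mean of at least 20 RPKM was reached by 13 members, and 37 were under it. After Ckap2, the members with the highest levels per length were Mki67, Ube2c, Foxm1 and Ccna2. The lowest after Ttk were Ndc80, Cdc25c, Kif18a and Ccnb2, each under 5 RPKM. By the longest annotated transcript, the wt values of Ttk, Ccnb2 and Cdc25c correspond to about 17, 20 and 22 reads at most. In the lowest T120D line they correspond to about 15, 10 and 14 reads. The confidence intervals of these genes are among the widest.

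**Figure D3:**
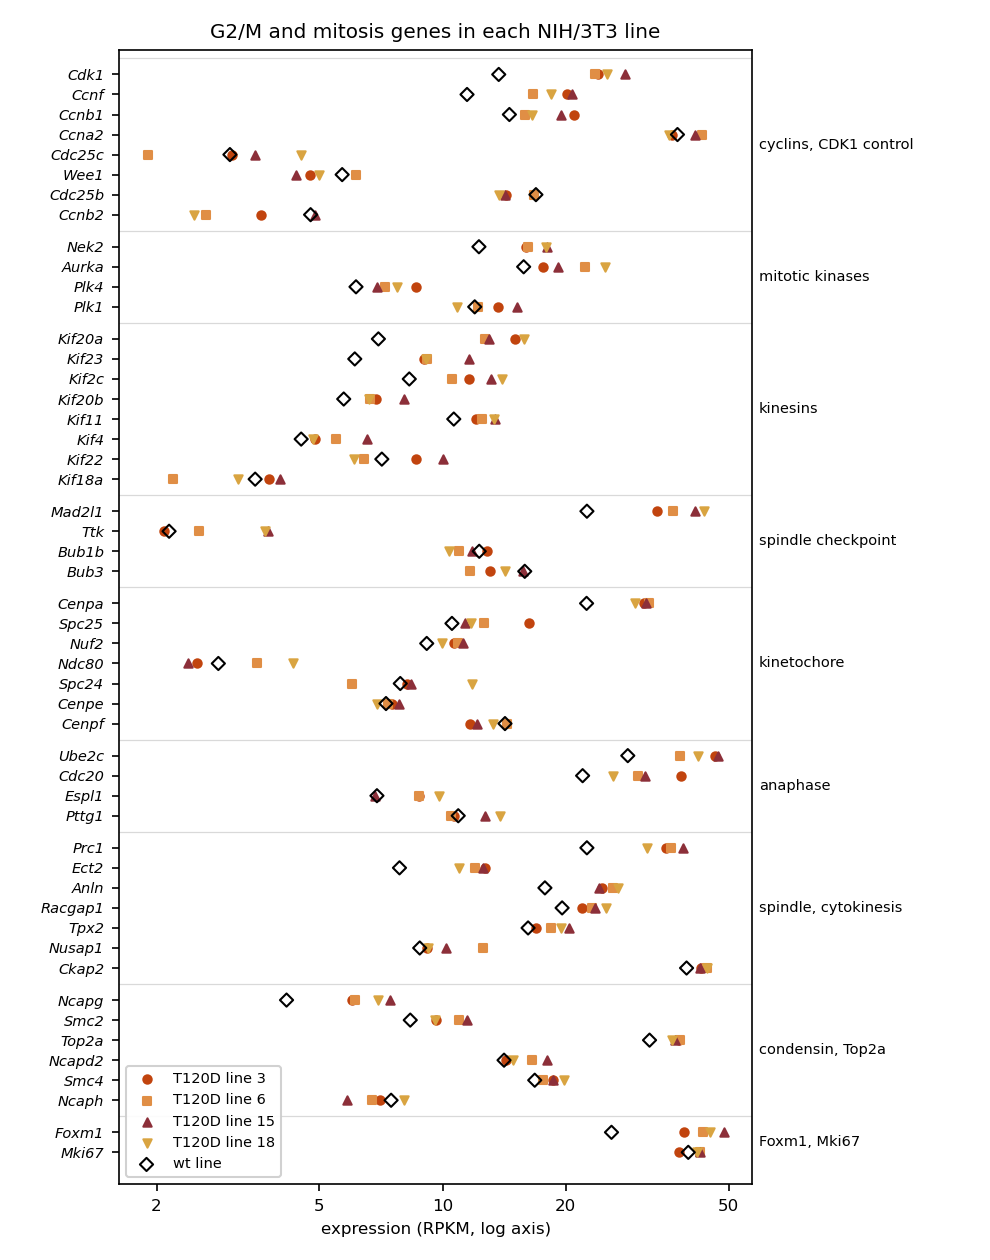
Expression of the 50 members in each line (horizontal axis, RPKM, log axis), grouped by role; filled symbols are the 4 T120D lines and open diamonds the wt line. For Cdk1, Kif20a, Mad2l1, Prc1 and Foxm1 the diamond is clearly left of all filled symbols, whereas for Ccna2, Plk1, Cenpe and Mki67 it lies among them.

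Among the 8 cyclins and CDK1 regulators, Cdk1 and Ccnf were higher and the other 6 genes were not called; the median difference was 0.05. Cdk1, the kinase that drives mitotic entry, was at 23.9, 23.6, 28.0 and 25.2 RPKM in lines 3, 6, 15 and 18 and at 13.7 RPKM in wt. The T120D lines stood close together and well above wt, with a mean of 25.2 ± 1.99 RPKM (SD, n = 4), 1.84 times wt. On the log2 scale Cdk1 was 0.83 above wt (95% confidence interval 0.52 to 1.14; limma adjusted p = 0.00587). Ccnf encodes cyclin F, which does not activate a CDK but is the substrate receptor of an SCF ubiquitin ligase. It was at 20.2, 16.7, 20.7 and 18.4 RPKM in the T120D lines, all above the 11.5 RPKM of wt. Its log2 difference was 0.67 (SE 0.15; adjusted p by limma = 0.0219; 0.0128 to 0.0675 over the alternatives). The call ended without the filter (adjusted p = 0.0675) and by limma without a trend (0.0593).

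The cyclins that bind CDK1 were not called. Ccna2, cyclin A2, was at 36.3, 43.0, 41.4 and 35.8 RPKM in T120D and at 37.5 RPKM in wt, within the range of the other lines. The log2 difference of 0.05 (95% confidence interval -0.25 to 0.36) was of the opposite sign, -0.024, under quantile normalization, and 510 exon bases are shared with Exosc9 on the opposite strand. Ccnb1, cyclin B1, was at 21.002, 15.9, 19.5 and 16.6 RPKM against 14.6 RPKM, above wt in each line but not called (log2 difference 0.30, limma adjusted p = 0.294). A set of 3 processed pseudogenes are at least 97% identical to its transcript, so its reads may be shared. Ccnb2, cyclin B2, had the lowest difference of all members. Its values of 3.59, 2.64, 4.88 and 2.46 RPKM scattered around and below the 4.76 RPKM of wt (log2 difference -0.42, SE 0.30, limma adjusted p = 0.392). The genes of CDK1's activating phosphatases and of its inhibitory kinase were not called either. Cdc25b was at 13.8 to 16.7 RPKM against 16.9 RPKM, Cdc25c at 1.90 to 4.50 RPKM against 3.02 RPKM, and Wee1 at 4.40 to 6.16 RPKM against 5.68 RPKM.

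None of the 4 mitotic kinases was called, and at an unadjusted limma p under 0.05 there was 1, Nek2. This kinase of centrosome separation was at 15.96, 16.2, 18.0 and 17.9 RPKM in T120D and at 12.3 RPKM in wt. The T120D lines were all above wt, and the log2 difference was 0.44, with a 95% confidence interval of 0.12 to 0.75 (limma adjusted p = 0.074). Aurka, Aurora A, was at 17.6, 22.3, 19.1 and 24.9 RPKM against 15.8 RPKM, with a spread among the lines that nearly reaches wt (log2 difference 0.38, limma adjusted p = 0.212). Plk4, the kinase of centriole duplication, was at 6.92 to 8.64 RPKM against 6.15 RPKM. Plk1 was at 10.9 to 15.2 RPKM around the 11.99 RPKM of wt, with a log2 difference of 0.10 (95% confidence interval -0.32 to 0.51).

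Of the 8 kinesins, Kif20a was higher and the other 7 were not called. Kif20a, a motor of the central spindle and cytokinesis, had the highest difference among the members. It was at 15.0, 12.7, 13.0 and 15.8 RPKM in T120D and at 6.97 RPKM in wt, so that even the lowest T120D line was well above wt. The mean of 14.1 ± 1.54 RPKM (SD, n = 4) was 2.03 times wt, or 0.92 on the log2 scale (SE 0.17; adjusted p by limma = 0.00886). In the GRCm38 annotation 1271 exon bases of Kif20a overlap Cdc23 on the opposite strand, and the treatment of strand is not given. Cdc23 itself was at 11.5 to 12.9 RPKM in T120D and at 11.9 RPKM in wt, with no such gap.

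Kif23, the motor subunit of centralspindlin, was at 9.01, 9.16, 11.6 and 9.09 RPKM against 6.10 RPKM. Line 15 stood above the other T120D lines, and all were above wt (log2 difference 0.59, SE 0.18, limma adjusted p = 0.0682). Kif2c, a microtubule depolymerase of centromeres, was at 11.6, 10.6, 13.1 and 13.9 RPKM against 8.29 RPKM (log2 difference 0.51, limma adjusted p = 0.0915). These 2 kinesins and Kif20a were the 3 with an unadjusted p under 0.05. Kif11, which pushes spindle poles apart, was at 12.1 to 13.4 RPKM against 10.7 RPKM, and Kif20b and Kif4 were also above wt in every T120D line without being called. Kif4 shares 832 exon bases with Pdzd11 on the opposite strand, which was also above wt in every T120D line, at 10.9 to 15.6 RPKM against 10.1 RPKM. Kif22 and Kif18a, motors of chromosome positioning, had wt within the range of the T120D lines. The difference of Kif18a was -0.09 with all lines and 0.05 without line 6.

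Of the 4 spindle checkpoint genes, Mad2l1 was higher and the other 3 were not called. Mad2l1, which encodes MAD2, the inhibitor of CDC20, was at 33.5, 36.6, 41.4 and 43.6 RPKM in T120D and at 22.5 RPKM in wt. All 4 lines were above wt, 1.72 times on average, with a log2 difference of 0.75 (SE 0.15; adjusted p by limma = 0.014; 0.0106 to 0.0762 over the alternatives). Its call ended without the filter (adjusted p = 0.0762) and by limma without a trend (0.0575). Bub1b and Bub3, partners in the same checkpoint complex, had differences below 0. Bub1b, which encodes BUBR1, was at 12.8, 10.97, 11.8 and 10.3 RPKM against 12.3 RPKM (log2 difference -0.10, 95% confidence interval -0.46 to 0.27). Bub3 was at 13.1, 11.7, 15.7 and 14.2 RPKM, each below the 15.9 RPKM of wt (-0.21, 95% confidence interval -0.60 to 0.18). Neither was called, and line 15 nearly reached wt for Bub3. Ttk, the checkpoint kinase MPS1, was at 2.08 to 3.75 RPKM against 2.15 RPKM.

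In the kinetochore group, Cenpa was higher and the 6 other genes were not called. Cenpa encodes the histone H3 variant that marks centromeres. It was at 31.1, 32.0, 31.5 and 29.5 RPKM in T120D, a narrow range above the 22.5 RPKM of wt. The mean was 1.38 times wt, the smallest ratio among the called members, with a log2 difference of 0.45 (SE 0.12; adjusted p by limma = 0.0357; 0.0276 to 0.103 over the alternatives). This call ended without line 3 (adjusted p = 0.0723), without line 15 (0.0719), under quantile normalization (0.0568) and by limma without a trend (0.103). The 4 subunits of the NDC80 complex, which binds microtubules, had log2 differences of 0.10 (Ndc80), 0.20 (Nuf2), 0.08 (Spc24) and 0.27 (Spc25). Their levels were uneven, with Ndc80 at 2.39 to 4.31 RPKM in any T120D line and Nuf2 at 9.94 to 11.2 RPKM. Cenpe, a kinetochore motor, was at 6.90 to 7.84 RPKM against 7.28 RPKM. Cenpf was at 11.7 to 14.3 RPKM against 14.2 RPKM, with a log2 difference of -0.14 (95% confidence interval -0.49 to 0.22).

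Among the anaphase genes, Ube2c was higher. It was at 46.3, 38.1, 47.2 and 42.0 RPKM in T120D and at 28.4 RPKM in wt, 1.53 times on average. All T120D lines were above wt, and the log2 difference was 0.59 (SE 0.14; adjusted p by limma = 0.0242; 0.00998 to 0.0862 over the alternatives). The call ended without line 3 (adjusted p = 0.0538), without the filter (0.0862) and by limma without a trend (0.0846). Its annotated exons share 592 bases with Tnnc2 on the opposite strand, which was listed at 0 in every line. Cdc20, the coactivator of the anaphase-promoting complex, was at 38.3, 30.0, 31.2 and 26.2 RPKM against 22.0 RPKM. Line 3 was highest, wt was also the lowest line for Elovl1 on the opposite strand (53 shared exon bases), and Cdc20 was not called (log2 difference 0.48, SE 0.18, limma adjusted p = 0.116). Securin and its target separase were not called. Pttg1, securin, was at 10.5 to 13.8 RPKM against 10.9 RPKM (0.11, 95% confidence interval -0.30 to 0.52), and Espl1, separase, at 6.86 to 9.79 RPKM against 6.91 RPKM (0.26, -0.19 to 0.71).

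Of the 7 spindle and cytokinesis genes, 3 were called higher, and in all 7 the wt line was below every T120D line. Over all tested genes these shares were 7.65% and 31.1%. Prc1, which bundles the antiparallel microtubules of the midzone, was at 35.2, 36.2, 38.8 and 31.6 RPKM in T120D and at 22.5 RPKM in wt. The T120D mean was 1.57 times wt, with a log2 difference of 0.63 (SE 0.13; adjusted p by limma = 0.0166; 0.0127 to 0.0645 over the alternatives). The call ended without the filter (adjusted p = 0.0602) and by limma without a trend (0.0645). Rccd1, whose exons share 911 bases with Prc1 on the opposite strand, was at 1.93 to 2.60 RPKM in T120D and at 1.57 RPKM in wt, so that wt was the lowest for this gene too. Its part in the Prc1 values was not tested. Ect2, the exchange factor that activates RhoA at the equator, was at 12.7, 12.03, 12.5 and 10.9 RPKM against 7.85 RPKM. Its log2 difference was 0.56 (SE 0.15; adjusted p by limma = 0.0429; 0.0307 to 0.0866 over the alternatives).

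Anln encodes anillin, the scaffold of the contractile ring. It was at 24.6, 26.1, 24.2 and 26.8 RPKM against 17.8 RPKM, with a log2 difference of 0.49 (SE 0.12; adjusted p by limma = 0.0328; 0.0248 to 0.0892 over the alternatives). The calls of Ect2 and Anln each ended under 5 of the 11 alternatives. That of Ect2 ended without line 3 (adjusted p = 0.0866), line 6 (0.0573) or line 15 (0.0846), without the filter (0.0583) and by limma without a trend (0.0733). That of Anln ended without line 3 (0.0592), line 15 (0.0506) or line 18 (0.0649), under quantile normalization (0.0566) and by limma without a trend (0.0892). Racgap1, the partner of Kif23 in centralspindlin and of Ect2, was at 22.0 to 25.1 RPKM against 19.6 RPKM (log2 difference 0.25, 95% confidence interval -0.04 to 0.53). Tpx2, the activator of Aurora A, and Nusap1 had differences of 0.20 and 0.19. Oip5, which shares 172 exon bases with Nusap1 on the opposite strand, was also lowest in wt. Ckap2, a microtubule-associated protein gene, was at 42.9, 44.3, 42.5 and 44.2 RPKM against 39.5 RPKM, a log2 difference of 0.14 (95% confidence interval -0.10 to 0.37).

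Of the chromosome condensation genes, 0 of 6 were called by limma, and at an unadjusted p under 0.05 there was 1, Ncapg. Condensin is built from the ATPases SMC2 and SMC4 and the subunits NCAPD2, NCAPG and NCAPH. Ncapg was at 6.01, 6.10, 7.45 and 6.96 RPKM in T120D and at 4.16 RPKM in wt (log2 difference 0.56, SE 0.19, limma adjusted p = 0.0828). All 4 lines were above wt. Lcorl, with 944 shared exon bases on the opposite strand, was at 2.49 to 3.23 RPKM in T120D and at 2.46 RPKM in wt. The other subunits had differences of 0.29 (Smc2), 0.14 (Smc4), 0.16 (Ncapd2) and -0.11 (Ncaph). Top2a, the topoisomerase that untangles sister chromatids, was at 37.9, 38.0, 37.0 and 36.5 RPKM against 32.1 RPKM. Its T120D lines varied the least of all members, with an SD of 1.99% of the mean. The log2 difference was 0.21 (95% confidence interval -0.03 to 0.46, limma adjusted p = 0.228).

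Foxm1 was higher and Mki67, widely read as a sign of proliferation, was not called. Foxm1, the forkhead factor that activates late cell cycle promoters, was at 38.96, 43.2, 48.6 and 45.1 RPKM in T120D and at 25.9 RPKM in wt. Every T120D line was above wt, with a mean of 44.0 ± 4.03 RPKM (SD, n = 4), 1.70 times wt. The log2 difference was 0.74 (SE 0.13; adjusted p by limma = 0.00889; 0.00661 to 0.0513 over the alternatives), and the call ended without the filter (adjusted p = 0.0513). Mki67, which encodes the Ki-67 antigen, was at 37.8, 42.6, 42.6 and 41.9 RPKM, around the 39.9 RPKM of wt. Its log2 difference was 0.05 (95% confidence interval -0.22 to 0.31, limma adjusted p = 0.834), and -0.039 under quantile normalization. The 2 genes were not tested against each other. A processed pseudogene matches Mki67 over 216 bases.

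Summed over the 50 members, expression was 842, 840.8, 893 and 857 RPKM in lines 3, 6, 15 and 18 and 683 RPKM in wt. The sum was above wt in each line. The median log2 difference from wt was 0.17, 0.22, 0.29 and 0.25, with 39 to 42 members above wt. Over all tested genes, the median difference from wt was between -0.02 and 0.01 in each line. Line 15 held the highest of the 4 T120D values for 22 members and stood 0.08 above the T120D mean by its median member, whereas the medians of the other lines lay between -0.03 and -0.00. Over all tested genes, the medians relative to the T120D mean were between -0.00 and 0.02. Line 6 was the highest for 9 members and the lowest for 12. The root mean square log2 difference over the members was 0.22 to 0.28 between T120D lines and 0.38 to 0.45 between a T120D line and wt; over all tested genes it was 0.31 to 0.34 and 0.53 to 0.57. The SD was a median of 10.1% of the mean among the T120D lines.

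Of 114 further mitosis genes in 6 lists, 113 were tested (Mlf1ip was under the filter), 15 were higher and 0 lower (limma; 34 and 3 at an unadjusted p under 0.05), with a median log2 difference of 0.20. The 15 calls are 13.3% of these genes, where 7.65% of all tested genes were called higher. In the fit limited to a mean of at least 5 RPKM, 15 of 85 were higher, beside 747 of 6232 genes. At the unadjusted threshold the shares over all tested genes were 15.2% higher and 13.4% lower. The list of CDK1 control and mitotic transcription had 7 of 23 genes called higher. Among them were Gmnn, geminin, an inhibitor of relicensing, at 7.36 ± 1.49 RPKM (SD, n = 4) against 2.25 RPKM (log2 difference 1.35), Cdc25a, a CDK-activating phosphatase gene, at 7.75 ± 0.317 RPKM against 3.03 RPKM (1.12), and Mybl2, the B-MYB factor of the MuvB complex, at 5.35 ± 0.992 RPKM against 2.18 RPKM (0.98). The calls of Gmnn and Mybl2 ended without the filter, with limma adjusted p of 0.0597 and 0.0904. In the list of the chromosomal passenger complex, Bub1 and shugoshins, 2 of 7 were called. Birc5, survivin, was at 59.5 ± 4.48 RPKM against 32.1 RPKM, and Bub1, a checkpoint kinase gene, at 6.81 ± 0.915 RPKM against 3.13 RPKM. Bub1 lost its call when low genes were kept in (limma adjusted p = 0.0616).

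In the remaining lists, 0%, 13.3%, 6.67% and 12.5% of the genes were called higher, in the order given here. Over all tested genes this share was 7.65%. Of 29 tested kinetochore and centromere genes, 0 were called by limma, with 4 higher and 0 lower at an unadjusted p under 0.05. At that threshold 15.2% of all tested genes were higher and 13.4% lower. Among 15 genes of the anaphase-promoting complex, 2 were called, and both encode its regulators: Fzr1, the coactivator CDH1, at 11.96 ± 0.516 RPKM (SD, n = 4) against 6.18 RPKM, and Fbxo5, the inhibitor EMI1, at 26.1 ± 5.08 RPKM against 12.8 RPKM. The median of that list was -0.06. Of 15 cohesin and condensin II genes, 1 was called: Cdca5, sororin, which protects cohesin, at 14.7 ± 1.83 RPKM against 7.89 RPKM. At an unadjusted limma p under 0.05, 1 gene of this list was higher and 2 were lower. Its median log2 difference was -0.008, with a range of -0.90 to 0.82. Without the filter, the calls of Fbxo5 and Cdca5 ended (limma adjusted p = 0.115 and 0.0683), and by limma without a trend that of Fbxo5 ended as well (0.0618). Of 24 spindle and cytokinesis genes outside the 50, 3 were higher, with log2 differences of 0.81 (Gtse1), 0.78 (Haus6, an augmin subunit) and 0.65 (Troap). The call of Gtse1 ended without the filter (adjusted p = 0.0549) and that of Troap without line 15 (0.0538).

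Beside the members, 13 of 42 DNA replication genes (31.0%) were higher and 0 lower by limma, with 21 higher and 0 lower at an unadjusted p under 0.05. Over all tested genes, 7.65% were called higher, and 15.2% were higher at the unadjusted threshold. In the fit limited to a mean of at least 5 RPKM, 13 of 30 replication genes were higher, beside 747 of 6232 genes. The replication genes' median log2 difference was 0.45, where the 50 members had 0.23. Examples were Rrm2, a ribonucleotide reductase subunit, at 48.4 ± 3.98 RPKM (SD, n = 4) against 21.2 RPKM, and Mcm7 and Fen1, with log2 differences of 0.80 and 0.79. Whether the mitosis and replication genes differ from each other was not tested, and both are read against the same wt line.

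**Figure D4:**
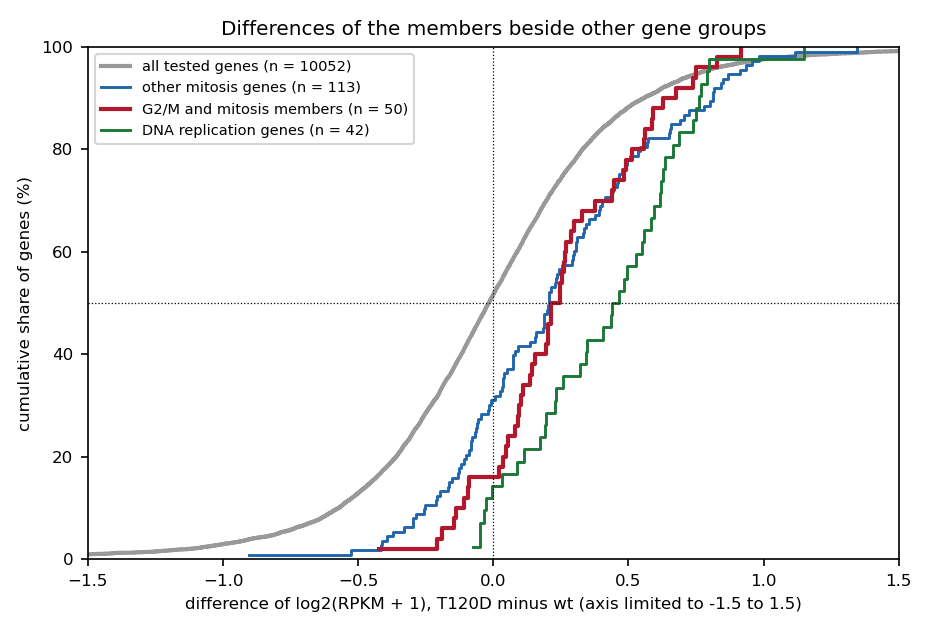
Cumulative share of genes (vertical axis, %) by difference of log2(RPKM + 1), T120D minus wt (horizontal axis, limited to -1.5 to 1.5), for the 50 members (red), 113 other mitosis genes (blue), 42 DNA replication genes (green) and all 10052 tested genes (grey). The curves of the members and of the other mitosis genes cross the 50% line at 0.23 and 0.20, that of the replication genes at 0.45 and that of all tested genes at -0.02.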

How the data were processed

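The authors deposited 1 table of RPKM per line, with 1 value per gene symbol per the file headers. Per the submitters' processing notes, Partek and mouse build mm9 were used; which aligner, annotation and strand setting were used is not given in the sources used here; genes with overlapping exons or near-identical copies are uncertain. RPKM are not counts, so values were analysed as log2(RPKM + 1), which understates changes of low genes. With limma 3.58.1 in R 4.3.3, T120D was compared with wt for genes whose mean reached 1 RPKM (two-sided moderated test, spread modelled with the mean level). The wt line, without a replicate, was assumed to vary like the T120D lines (3 residual and 5.99 prior degrees of freedom). Benjamini-Hochberg adjustment ran over all tested genes. The fit was tested on simulated data in which wt varied like the T120D lines, so that this assumption itself was not tested.

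Depth was estimated from low RPKM of genes with 1 annotated GENCODE M21 transcript, whose values fall on steps of 1 read; 48.3% to 53.3% of such values below 20 reads were whole to within 0.05 reads, against 10% by chance. No count model was used. P-values measure only the spread between these lines, which may be technical, since the labels do not say that the lines are separate clones or cultures. The members and lists were chosen with earlier results of these data known. Named members are those called, and in each role group those with the highest and lowest difference and the highest level. From the other lists, up to 3 called genes with the largest difference are named. The other members were added to account for all 50. Alternatives were pseudocounts of 0.1 and 0.5 RPKM, no filter, a mean of at least 5 RPKM, limma without a trend, median scaling, quantile normalization, and leaving out each T120D line. Overlapping exons came from GENCODE M21 (GRCm38), and near-identical transcripts from blastn at 97% identity over at least 200 bases.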

Additional observations from a re-analysis of the deposited data

Results flagged for a closer look

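Of the 50 members, 2 had a T120D line far from the other 3, where chance flags about 1 in 20 groups of lines. The gap to the nearest line, divided by the range of the 4 lines, was 0.933 for Kif23 and 0.87 for Mki67, above the 95% critical value of Dixon's test for 4 lines. Kif23 was at 11.6 RPKM in line 15 and at 9.01 to 9.16 RPKM in the other T120D lines. Mki67 was at 37.8 RPKM in line 3 and at 41.9 to 42.6 RPKM in the others.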

How the results depend on the processing

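With 11 alternatives, the count of members called lower stayed at 0 and the median log2 difference of the members at 0.21 to 0.25. Of the members called higher, 4 were left without the filter on low values and 3 by limma without a trend, all among the 10; leaving out 1 T120D line gave 6 (without line 3) to 9. Over all genes, 434 of 13826 were called higher without the filter, against 769 of 10052. By limma without a trend, 455 of 10052 were higher and 361 lower, against 769 and 548. Without line 3, 559 of 10085 genes were higher. Other mitosis genes called higher were 7 without the filter, against 15; leaving out 1 line gave 0 to 1 called lower (Stag2 without line 6, Cdc26 without line 15). Their median was 0.23 with a pseudocount of 0.1 RPKM and 0.24 under quantile normalization, against 0.20. DNA replication genes called higher were 8 without the filter and 8 by limma without a trend, against 13. Differences near 0 changed sign for Ccna2 (-0.024) and Mki67 (-0.039) under quantile normalization and for Kif18a (-0.17 to 0.046 when 1 line was left out). Other settings moved no count by over 1.5 times. Leaving out a line leaves fewer samples; for the other settings, the filter included, the cause was not tested. No paired analysis was possible because wt has 1 line and the line numbers are not shared between groups. Depth limits the low members: 5 have a mean under 5 RPKM.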
